A study of Mus musculus with 30 samples.

Results

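The Dppa genes and germ cell markers described here are 10 mouse genes (Dppa2, Dppa3, Dppa4, Dppa5a, Tcl1, Dazl, Prdm1, Tfap2c, Mael and Sycp3), taken by symbol from the 23284 genes of the series' RNA tables. All 10 were present in both tables and passed the filter on low values in both. The study, on how mesendoderm genes respond to p53, Wnt and TGF-β, followed embryonic stem (ES) cells as they formed embryoid bodies (EBs), aggregates that differentiate in suspension. The first table holds 10 libraries of wild-type E14Tg2a.IV cells (129/Ola strain, called E14 here) grown in serum with LIF, with 2 libraries at each of day 0 (ES cells) and days 1, 2, 3 and 4 (EBs). The second holds 4 libraries of EBs at day 4 from C57BL/6J ES cells kept in N2B27 medium with LIF and 2i (a pair of kinase inhibitors), 2 wild type for Trp53 (Trp53+/+) and 2 Trp53-/- that also carried hairpins against p63 and p73 (p53 family loss below). Both p53 family loss libraries carried the deletion and the hairpins together, so the 2 cannot be told apart. The labels do not mention a hairpin in the Trp53+/+ cells.

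Dppa stands for developmental pluripotency associated, a name given to genes expressed like Oct4 in early embryos and germ cells, so these genes share a pattern and not a family. Dppa2 and Dppa4 are neighbouring genes whose SAP domain proteins bind chromatin together and keep CpG-rich developmental and germline promoters free of DNA methylation. Dppa3 (Stella) shields DNA methylation in the fertilised egg and marks primordial germ cells, and Dppa5a is a KH domain RNA-binding protein. Tcl1 is a coactivator of Akt kinases. Primordial germ cells, the embryonic precursors of eggs and sperm, are specified from epiblast cells by the transcription factors Prdm1 (Blimp1), Prdm14 and Tfap2c. Dazl (an RNA-binding translational regulator), Mael (a factor of the piRNA pathway that silences transposons) and Sycp3 (a component of the chromosome axis in meiosis) act later in germ cells, and in somatic lineages genes of this kind are silenced by DNA methylation and by E2F6 and MGA complexes.

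The E14 libraries held 20104644 to 39835808 reads and the genotype libraries 19104692 to 31580252. Markers followed the labels. Naive pluripotency markers summed to 84623 to 112825 normalised reads at day 0 and 6569 to 9313 at day 4, and 8 primitive streak markers to 345 to 865 at day 0 and 54057 to 60660 at day 4. The 2 day 0 libraries stood apart from each other: replicate 1 had the higher naive sum, and the primed epiblast sums were 8294 in replicate 1 and 24036 in replicate 2. Most of the gap in the primed sums was Dnmt3b, at 5128 and 19986, while Otx2 spanned 1180 to 1216 and Pou3f1 1192 to 1990. Trp53 was at 8339 and 11784 in the Trp53+/+ libraries and 866 and 802 in p53 family loss (log2 fold change -3.57 ± 0.20, adjusted p = 0.0017), and Trp73 at 219 and 297 against 48.0 and 52.5 (adjusted p = 0.022), whereas Trp63 was at 6.08 or below in all 4 and was not tested. Values are normalised read counts of replicates 1 and 2 in that order, or means ± SD with n = 2, and fold changes are log2 differences ± SE on the log2(value + 1) scale. A gene was called at a Benjamini-Hochberg adjusted p under 0.05 in limma. Whether replicates 1 and 2 came from different cultures is not given in the labels, and the p-values then reflect the spread between these samples alone, which may be technical. In bulk RNA, fewer cells that express a gene and less RNA per cell cannot be told apart.

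Of the 10 genes, 8 fell from day 0 to day 4, where 16.7% of all 15841 genes tested fell, 19.2% rose and 36% changed in either direction. The median log2 fold change was -3.54 for the 10 genes and 0.01 for all genes tested. Tcl1 fell most, with a mean at day 0 that was 133 times that at day 4, followed by Dppa2, Dazl, Dppa3, Dppa5a, Dppa4, Mael and Tfap2c. Prdm1 overlapped between the 2 days and Sycp3 missed the threshold. The groups did not overlap for 9 of the 10 genes, all lower at day 4, where 32.7% of all genes were lower without overlap. A change on any of the 5 days was called for all 10 genes, against 38.9% of all genes.

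**Figure D1:**
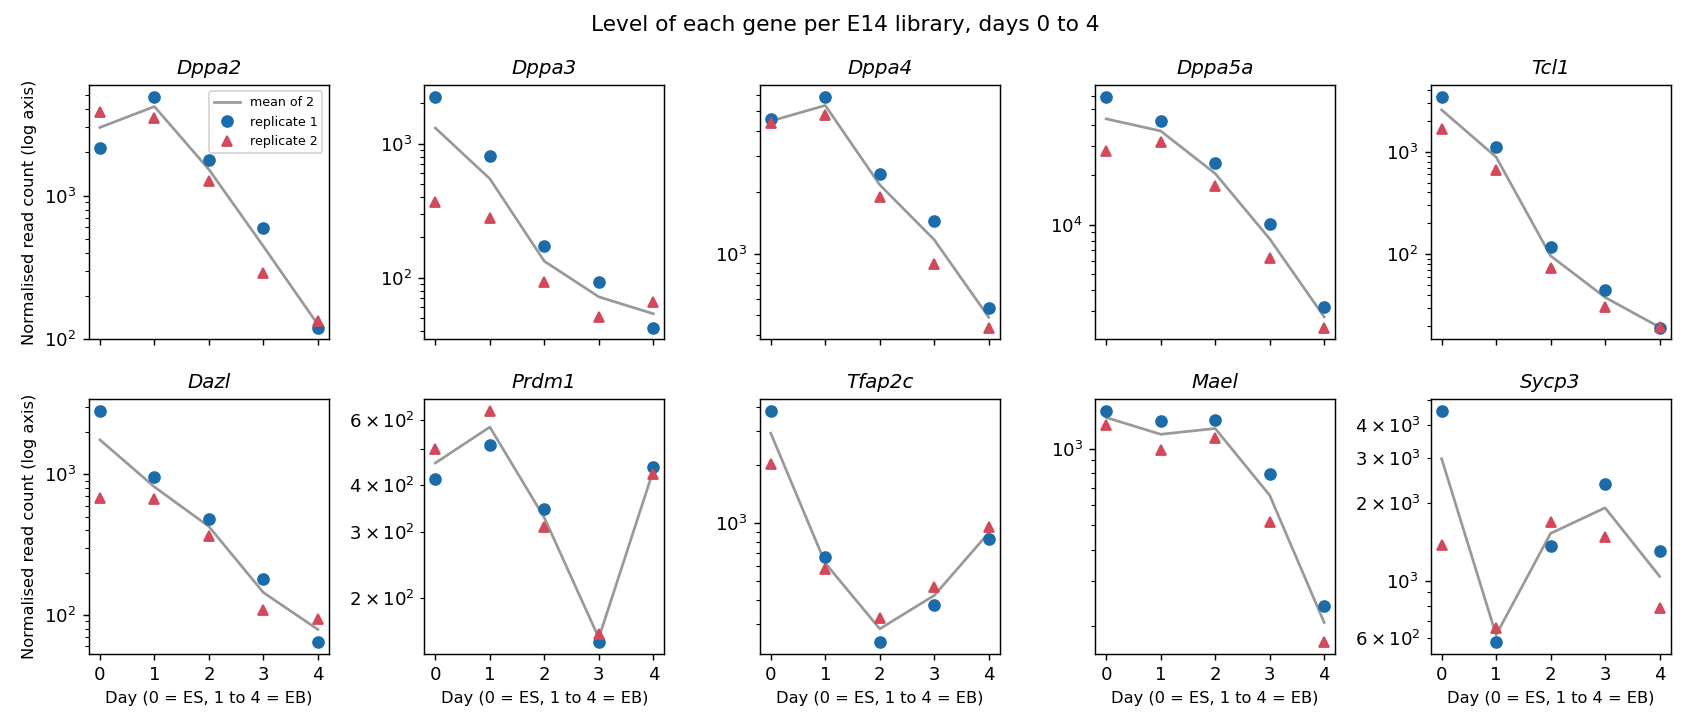
Normalised read count (log axis) of each of the 10 genes against day, with replicate 1 as circles, replicate 2 as triangles and the mean of the 2 as a line. Tcl1 falls steeply by day 2, Dppa2, Dppa4, Dppa5a and Mael fall mainly after day 1 or 2, Prdm1 and Tfap2c dip and are higher at day 4 than at day 3, and Sycp3 is lowest at day 1.

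Dppa2, the chromatin-binding partner of Dppa4, was measured at 2145 and 3830 at day 0, 4912 and 3450 at day 1, 1786 and 1260 at day 2, 598 and 288 at day 3 and 119.6 and 133 at day 4. The libraries of days 0 and 1 overlapped and were the highest, and each later day lay wholly below the day before it. From day 0 to day 4 the log2 fold change was -4.50 ± 0.38 (adjusted p = 4.83e-05), of which -0.93 came by day 2 (adjusted p = 0.11) and -3.56 after it (adjusted p = 4.71e-04).

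Dppa4 was at 4547 and 4367 at day 0, 5882 and 4759 at day 1, 2441 and 1904 at day 2, 1447 and 891 at day 3 and 543 and 433 at day 4. No 2 days overlapped, and the order was day 1, day 0, day 2, day 3 and day 4 from high to low, although the higher level at day 1 was not called (log2 0.25 ± 0.25, adjusted p = 0.60). Its fall was -3.20 ± 0.25 over the 4 days (adjusted p = 3.27e-05), -1.05 by day 2 (adjusted p = 0.019) and -2.15 from day 2 to day 4 (adjusted p = 6.99e-04). The day 2 call was lost without either day 2 library (adjusted p = 0.056 and 0.16). Over the 10 libraries, which share their 5 days, Pearson's r between the log2 levels of Dppa2 and Dppa4 was 0.99.

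Dppa5a, the KH domain RNA-binding protein, had the highest normalised counts of the 10 genes at day 0, a comparison that takes no account of transcript length. It was at 59440 and 27657 at day 0, 42024 and 31538 at day 1, 23632 and 17059 at day 2, 10073 and 6313 at day 3 and 3157 and 2371 at day 4. Days 0 and 1 overlapped and every later day was wholly lower than the one before. The fall was -3.89 ± 0.36 by day 4 (adjusted p = 7.18e-05), with -1.01 by day 2 (adjusted p = 0.077) and -2.88 after it (adjusted p = 9.73e-04). Dppa2, Dppa4 and Dppa5a had thus reached 20.8%, 32.7% and 26.1% of their log2 fall by day 2. The share for Dppa2 was 12.6% without day 0 replicate 2, and that for Dppa5a 13.8% without day 0 replicate 1. At day 4, Dppa5a still stood at 109 and 79.4 CPM (reads scaled to the total of each library) and Dppa4 at 18.7 and 14.5.

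Dppa3 (Stella) had the widest spread at day 0 of the 10 genes. It was at 2250 and 368 at day 0, 814 and 279 at day 1, 172 and 92.4 at day 2, 92.5 and 51.0 at day 3 and 42.1 and 65.2 at day 4. Replicate 1 of day 0 lay 2.61 log2 units above replicate 2, a gap larger in size than that of 97.9% of all genes tested, and days 0 and 1 overlapped, as did days 2 and 3 and days 3 and 4. The fall was -4.09 ± 0.79 by day 4 (adjusted p = 0.0035) and -2.84 ± 0.79 by day 2 (adjusted p = 0.033). The call at day 4 held without any 1 library, with values from -5.40 to -2.79. The call at day 2 was lost without replicate 1 of day 0 (-1.54, adjusted p = 0.12), without either day 2 library (adjusted p = 0.082 and 0.21) and, at an unchanged log2 value, without any 1 library of day 3 or day 4 (adjusted p = 0.052 to 0.053). Dppa3 and Dppa5a have processed copies in the mouse genome, and how reads shared with such copies were counted is not given in the sources used here.

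Tcl1, the Akt coactivator, was at 3474 and 1663 at day 0, 1115 and 664 at day 1, 118 and 73.8 at day 2, 44.8 and 30.6 at day 3 and 18.97 and 19.6 at day 4. Each day lay wholly below the one before, and at day 4 Tcl1 was at 0.653 and 0.655 CPM. The fall was -6.89 ± 0.43 by day 4 (adjusted p = 1.20e-05) and -4.67 ± 0.43 by day 2 (adjusted p = 3.50e-04), so that 67.8% of its log2 fall was reached by day 2, close to the 69.4% of Dppa3. The step from day 1 to day 2 was called in limma and in edgeR for Tcl1 alone of the 10 genes (-3.19 ± 0.43, adjusted p = 0.031), where 0.593% of all genes were called. DESeq2 called 5 genes in that step (Tcl1, Dppa2, Dppa4, Prdm1 and Tfap2c), and limma called 7 without either day 0 library and 2 without day 1 replicate 2. The Tcl1 step was not called without day 1 replicate 1 (adjusted p = 0.35) or any 1 library of days 2, 3 and 4 (adjusted p = 0.069 to 0.47). The later fall from day 2 to day 4 was -2.22 (adjusted p = 0.0080), and was not called without day 2 replicate 1 (adjusted p = 0.096) or either day 4 library (adjusted p = 0.054 and 0.058).

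The specification factors Prdm1 and Tfap2c did not follow the other genes. Tfap2c was at 3850 and 2022 at day 0, 663 and 577 at day 1, 241 and 323 at day 2, 375 and 466 at day 3 and 823 and 958 at day 4. No 2 days overlapped, day 0 was the highest, day 2 the lowest and day 4 the second highest. In limma, Tfap2c was the single gene of the 10 called between day 0 and day 1 (-2.17 ± 0.31, adjusted p = 0.0071, with 3.3% of all genes called), a call lost without day 1 replicate 2 (adjusted p = 0.078). In that step edgeR called 2 of the 10 genes (Tfap2c and Sycp3) and DESeq2 3 (with Tcl1), and without day 0 replicate 2 limma called 5. Tfap2c fell by day 2 (-3.32 ± 0.31, adjusted p = 3.50e-04) and rose from day 2 to day 4 (1.67 ± 0.31, ratio of means 3.16, adjusted p = 0.0060). The rise was not called without day 2 replicate 1 (adjusted p = 0.074) or day 4 replicate 2 (adjusted p = 0.064).

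Prdm1 was at 417 and 501 at day 0, 512 and 634 at day 1, 345 and 310.2 at day 2, 153 and 160.2 at day 3 and 449 and 428 at day 4. Day 3 was the lowest day, and day 4 overlapped with day 0. Prdm1 rose from day 3 to day 4 (1.48 ± 0.24, ratio of means 2.80, adjusted p = 0.0095), where 2.31% of all genes rose, and the difference between day 4 and day 0 was -0.06 ± 0.24 (adjusted p = 0.86). The rise kept its size without any 1 library (1.45 to 1.52) but was not called without day 3 replicate 1 (adjusted p = 0.11), day 3 replicate 2 (adjusted p = 0.051), day 4 replicate 1 (adjusted p = 0.10) or day 4 replicate 2 (adjusted p = 0.12). Tfap2c had a mean at day 4 that was 2.12 times that at day 3 and missed the threshold (adjusted p = 0.100).

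The third specification factor, Prdm14, fell from 757 ± 279 at day 0 to 121 ± 59.9 at day 4 (log2 -2.68 ± 0.54, adjusted p = 0.0045). Its level was 43.0 at day 2 and 23.8 at day 3, and the higher level at day 4 than at day 3 was not called (log2 2.20 ± 0.54, adjusted p = 0.064). Nanos3, an RNA-binding protein that sustains primordial germ cells, was at 13.5 ± 3.95 at day 4 and 9.34 ± 7.03 at day 3 (adjusted p = 0.74). Ifitm1, a membrane protein of early germ cells and of mesoderm, rose from 1084 ± 214 at day 3 to 4794 ± 293 at day 4 (log2 2.16 ± 0.35, adjusted p = 0.011). Of 16 primordial germ cell genes tested in that step, 1 was called higher (2.31% of all genes) and 0 lower (0.619%). Of the 16, 9 lay above 0 and 7 below, with a median of 0.07. Ddx4, for instance, went from 898 to 485 and Sohlh2 from 223 to 84.5.

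Markers of other cells that use Prdm1 or Tfap2c moved on the same days. The 10 trophoblast markers, of which 8 were tested, summed to 600 to 808 at day 3 and 4502 to 12520 at day 4, and 4 of the 8 rose in that step, where 2.31% of all genes rose, although Tpbpa was at 0 in every E14 group and Elf5 at 5.2 at day 4. Most of the sum at day 4 was Hand1 (5709), also a mesoderm gene, and Cdx2 (1427). Definitive endoderm markers summed to 1435 to 1921 at day 3 and 6538 to 6661 at day 4, with 4 of 6 higher. Visceral endoderm markers went from 1228 to 1614 up to 2561 to 2829, with 3 of 10 tested higher and with Afp at 9.8 and Ttr at 9.5 at day 4. Surface ectoderm markers went from 5222 to 7767 up to 16602 to 18873, with 1 of 8 called higher, 5 above 0 and 3 below. Most of that sum at day 4 was Krt8 (9023) and Krt18 (7495). Grhl2 went from 1467 at day 3 to 823 at day 4, and Krt5, Krt14, Trp63 and Dlx5 were at 5.04 or below at day 4. The part of these cells in the rises of Prdm1 and Tfap2c was not tested.

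Dazl, Mael and Sycp3 serve in later germ cells. Promoter sequence was at hand for 5 of the 10 genes in RefSeq (GRCm38.p6, 250 bases before to 50 after the start, 5′ to 3′ on the gene's strand), and those of these 3 genes are shown because the 3 genes took different courses over the 5 days. Capitals mark each match to CACGTG, the E-box that MGA and MAX bind, and to the E2F-type core GCGGGA or its reverse complement TCCCGC, searched on both strands.
Dazl, chr17:50293571-50293870, minus strand: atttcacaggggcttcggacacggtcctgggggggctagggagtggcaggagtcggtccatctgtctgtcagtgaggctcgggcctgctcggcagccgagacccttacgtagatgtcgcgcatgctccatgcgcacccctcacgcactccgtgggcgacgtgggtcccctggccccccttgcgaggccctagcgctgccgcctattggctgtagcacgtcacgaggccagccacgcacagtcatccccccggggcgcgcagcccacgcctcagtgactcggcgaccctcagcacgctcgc
Mael, chr1:166238695-166238994, minus strand: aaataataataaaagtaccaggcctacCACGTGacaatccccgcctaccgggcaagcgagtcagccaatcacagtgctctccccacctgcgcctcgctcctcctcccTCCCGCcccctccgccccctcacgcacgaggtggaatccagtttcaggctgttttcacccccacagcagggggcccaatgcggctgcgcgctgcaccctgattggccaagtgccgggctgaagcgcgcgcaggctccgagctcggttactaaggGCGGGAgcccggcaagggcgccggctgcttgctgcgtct
Sycp3, chr10:88459337-88459636, plus strand: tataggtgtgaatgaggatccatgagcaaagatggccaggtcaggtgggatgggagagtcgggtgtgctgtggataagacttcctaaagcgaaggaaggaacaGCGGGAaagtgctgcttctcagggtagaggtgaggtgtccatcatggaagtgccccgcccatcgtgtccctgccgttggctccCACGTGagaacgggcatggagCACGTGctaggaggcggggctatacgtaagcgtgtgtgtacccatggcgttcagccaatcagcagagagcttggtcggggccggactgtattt

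The Sycp3 sequence held 2 E-boxes, at positions -64 and -43 relative to the start, and 1 E2F-type core at -147. The Mael sequence held 1 E-box at -223 and 2 E2F-type cores at -143 and 12, and the Dazl sequence held neither. Of all 32851 RefSeq promoters of this length, 7.15% held an E-box, 0.594% at least 2, and 20.0% an E2F-type core. The Dazl promoter was the richest in CpG of the 5, with 28 CpG, more than or equal to 87.1% of all promoters, followed by Mael with 24, Prdm1 with 20, Sycp3 with 15 and Tcl1 with 11, where the median promoter had 7. Neither motif was found in the Tcl1 and Prdm1 sequences. These matches describe the letters of the sequences and were not tested against any measurement.

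Dazl was at 2838 and 680.3 at day 0, 962 and 666 at day 1, 484 and 367 at day 2, 181 and 108 at day 3 and 64.3 and 93.5 at day 4. Replicate 1 of day 0 was far above replicate 2, which overlapped with day 1, and from day 2 on each day lay wholly below the day before. The fall was -4.15 ± 0.57 by day 4 (adjusted p = 5.54e-04) and was called without any 1 library, at -5.18 to -3.12. The fall from day 2 to day 4 was -2.43 ± 0.57 (adjusted p = 0.018), and was not called without either day 2 library (adjusted p = 0.14 and 0.063) or either day 4 library (adjusted p = 0.12 and 0.070).

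Mael, the piRNA pathway factor, was at 1416 and 1243 at day 0, 1292 and 990.1 at day 1, 1303 and 1104 at day 2, 797 and 514 at day 3 and 240.0 and 173 at day 4. Day 2 overlapped with days 0 and 1, and days 3 and 4 were lower than every earlier library. Mael was the latest of the falling genes: the difference between day 2 and day 0 was -0.15 ± 0.27 (adjusted p = 0.74), 5.40% of its log2 fall (0.976% without day 2 replicate 2 and 9.82% without day 2 replicate 1), and the log2 fold change was -2.55 ± 0.27 from day 2 to day 4 (adjusted p = 4.71e-04) and -1.65 ± 0.27 from day 3 to day 4 alone (adjusted p = 0.012). The last step was not called without day 3 replicate 1 (adjusted p = 0.14) or day 4 replicate 2 (adjusted p = 0.16).

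Sycp3, of the meiotic chromosome axis, was at 4565 and 1375 at day 0, 578 and 653 at day 1, 1365 and 1684 at day 2, 2361 and 1469 at day 3 and 1298 and 779 at day 4. Both day 1 libraries were lower than all others, and days 0, 3 and 2 overlapped. Between day 0 and day 4 the log2 difference was -1.32 ± 0.48 (adjusted p = 0.056), which reached the threshold with edgeR (-1.49, adjusted p = 0.037). The step from day 0 to day 1 missed it (-2.03 ± 0.48, adjusted p = 0.052) and the higher level at day 2 than at day 1 was not called (1.30 ± 0.48, adjusted p = 0.18). Without day 0 replicate 2, the difference between day 4 and day 0 was -2.18 and called (adjusted p = 7.50e-04). The call of any change (adjusted p = 0.039) held without either day 0 library and was lost without any 1 of the other 8, with adjusted p of 0.058 to 0.15. Dppa3, Dazl and Sycp3 had the largest gaps between the day 0 libraries among the 10 genes (2.61, 2.06 and 1.73 log2 units), each higher in replicate 1, whereas Dppa4 differed by 0.06.

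The steps before and after day 2 gave different sets of calls. From day 0 to day 2, 4 of the 10 genes fell (Dppa3, Dppa4, Tcl1 and Tfap2c), with 8.22% of all genes lower, and the median was -1.03. From day 2 to day 4, 6 fell (Dppa2, Dppa4, Dppa5a, Tcl1, Dazl and Mael), with 7.68% of all genes lower, 1 rose (Tfap2c), with 8.35% of all genes higher, and the median was -2.19. These comparisons share the day 2 libraries. Leaving out 1 library moved the early count to between 2 and 7 and the late count to between 4 and 7. The early count was 2 without either day 2 library and 7 without day 0 replicate 2, and the late count was 4 without day 4 replicate 2 or day 2 replicate 1.

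**Figure D2:**
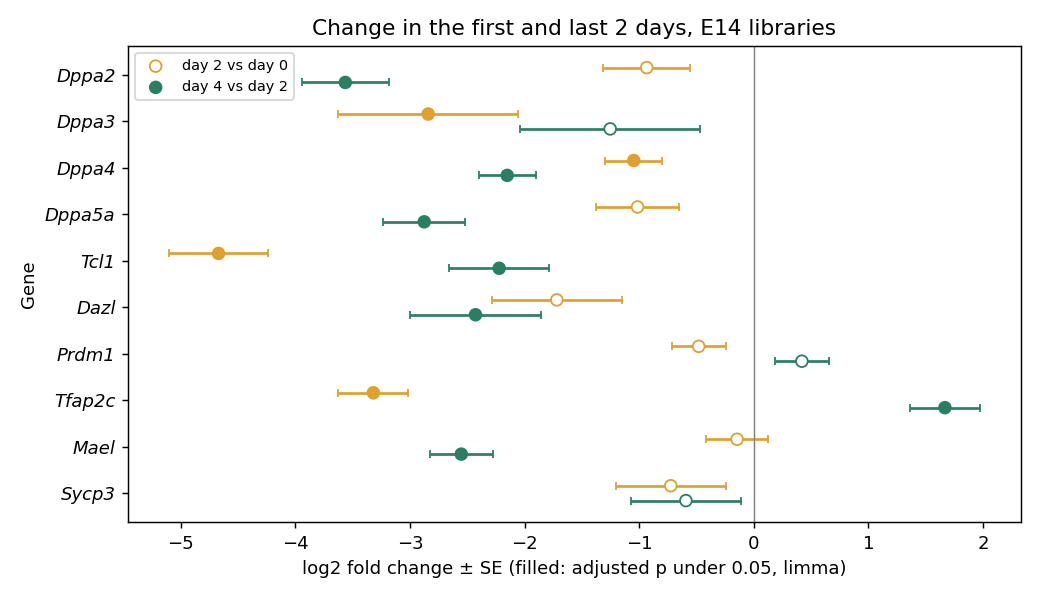
log2 fold change ± SE of each gene from day 0 to day 2 (orange) and from day 2 to day 4 (green) in the E14 libraries, filled where the adjusted p in limma was under 0.05. Tcl1, Dppa3 and Tfap2c lie farthest left before day 2, Dppa2, Dppa5a and Mael after it, and Tfap2c is the one gene called on opposite sides of 0.

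By single days, the steps from day 1 to day 2 and from day 2 to day 3 carried few calls. From day 2 to day 3 limma called 0 of the 10 genes (0.133% of all genes), and edgeR called 0 and DESeq2 3. From day 3 to day 4, Dppa2 (-1.71, adjusted p = 0.043), Dppa4 (-1.23, adjusted p = 0.031) and Mael fell, with 0.619% of all genes lower, and Prdm1 rose. The Dppa2 call of that step was lost without any 1 library of days 1 and 2, day 3 replicate 1 or either day 4 library (adjusted p = 0.066 to 0.35), and the Dppa4 call without either day 2 library, day 3 replicate 1 or either day 4 library (adjusted p = 0.053 to 0.31).

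The genes most alike in pattern were ranked by Pearson's r of the log2 level over the 10 E14 libraries among 3160 genes whose day means spanned at least 2 log2 units. Since the libraries share their days, these r describe a shared course, and also any shared gap between the 2 libraries of a day. Such gaps were wide at day 0 for Anxa8 (368 ± 395), Rpl39l (2597 ± 2142) and Hbegf (1642 ± 1260), which are named below. For Dppa2 they were Syce1 (r = 0.995), of the synaptonemal complex, and Tex11 (r = 0.995), a meiotic recombination gene, and for Dppa4 Hsf2bp (r = 0.996) and Zfp534 (r = 0.995). Dppa5a was most like Tuba3a and Tdrd12 (both r = 0.991), the latter a tudor protein of the piRNA pathway, and Mael like the testis-type metabolic genes Slc25a31 (r = 0.979) and Pdha2 (r = 0.978). Dazl was most like Rpl39l (r = 0.987), a ribosomal protein gene of spermatogenic cells, and Sncg (r = 0.984). Tcl1 was most like Jam2 and Mreg (both r = 0.994), and Dppa3 like Anxa8 (r = 0.994) and Klk1 (r = 0.984).

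Tfap2c was most like Hbegf (r = 0.987), a growth factor gene with means of 1642 at day 0, 57.2 at day 2 and 362 at day 4, and Fgfbp1 (r = 0.968). Prdm1 and Sycp3 had no close match, with Cmklr1 (r = 0.899) and Pglyrp3 (r = 0.882) for Prdm1 and Ccdc68 (r = 0.886) and Fbln5 (r = 0.854) for Sycp3. Cmklr1 was at 45.1 at day 3 and 260 at day 4, while Pglyrp3 was at 26.5 or below in every day mean. Between the 10 genes themselves, r was 0.98 for Dppa4 and Dppa5a and 0.96 for Dazl and Dppa3, whose day 0 libraries lay farthest apart.

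Other germline genes were read from lists drawn up with earlier results of these data known, and genes may stand in more than 1 list. Of 20 germline genes held silent by promoter DNA methylation in somatic cells, 19 were tested, and 16 fell and 0 rose from day 0 to day 4, with a median of -3.19, where 16.7% of all genes fell and the median was 0.01. Stra8, which starts meiosis in response to retinoic acid, fell from 607 ± 467 to 7.50 ± 4.77 (log2 -6.03 ± 0.59, adjusted p = 9.29e-05), and Hormad1, of the meiotic chromosome axis, from 854 ± 29.2 to 23.3 ± 6.76 (-5.17 ± 0.49, adjusted p = 7.87e-05). Tex19.1, a germ cell and ES cell gene that restrains retrotransposons, fell from 11522 ± 7114 to 463 ± 195 (-4.55 ± 0.56, adjusted p = 3.06e-04). From day 2 to day 4 alone, 15 of the 19 fell (7.68% of all genes), while 5 fell (8.22%) and 1 rose (10.1%) by day 2.

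Of 20 meiosis genes tested, 12 fell and 0 rose by day 4 (16.7% and 19.2% of all genes), with a median of -1.56. Sycp1, the central partner of Sycp3 in the synaptonemal complex, fell from 424 ± 46.1 to 155 ± 3.59 (-1.44 ± 0.32, adjusted p = 0.0067). Of 18 piRNA and germ granule genes tested, 9 fell and 2 rose (again 16.7% and 19.2% of all genes), with a median of -1.60. Piwil2, a PIWI protein that loads piRNAs, fell from 940.0 ± 84.4 to 92.4 ± 13.9 (-3.34 ± 0.33, adjusted p = 9.29e-05), as did the germ granule genes Gtsf1 (-4.90), Piwil4 (-4.06) and Fkbp6 (-3.93), while the tudor genes Tdrd5 (1.25, adjusted p = 0.015) and Tdrd7 (1.71, adjusted p = 0.011) rose. Piwil1 fell late, from 210.0 ± 53.1 at day 2 to 9.84 ± 0.0790 at day 4 (-4.26 ± 0.46, adjusted p = 5.16e-04).

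Of 16 primordial germ cell genes tested, 11 fell (16.7% of all genes) and 1 rose (19.2% of all genes), with a median of -1.27. The rise was that of Fut4, the enzyme that makes the SSEA1 antigen, from 60.9 ± 5.49 to 189 ± 8.15 (1.62 ± 0.46, adjusted p = 0.022), and the falls included the homeobox genes Rhox6 (-5.10) and Rhox9 (-4.51) and Ddx4, the germ granule helicase (-1.45, adjusted p = 0.0012). Of the 10 genes' paralogues, 16 were in the table and 5 tested. Ooep, a KH domain relative of Dppa5a known from eggs, fell from 2050 ± 446 to 81.6 ± 4.71 (-4.62 ± 0.32, adjusted p = 2.04e-05), and Boll, the DAZ family relative of Dazl, fell from 141 ± 62.3 at day 2 to 24.6 ± 11.8 at day 4 (-2.48 ± 0.46, adjusted p = 0.0063). Of the relatives of Tfap2c in the list, Tfap2a was at 84.9 ± 4.74 at day 4 and 63.1 ± 35.0 at day 0 (adjusted p = 0.35). Tfap2e fell from 51.8 ± 1.54 at day 2 to 13.5 ± 0.688 at day 4 (-1.86 ± 0.42, adjusted p = 0.016).

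Among 16 genes for repressors of germline genes, 2 rose and 5 fell by day 4, with a median of -0.30, where 19.2% of all genes rose and 16.7% fell. Dnmt3b, a de novo DNA methyltransferase, was at 12557 ± 10506 at day 0, 94822 ± 8949 at day 2 and 29248 ± 2022 at day 4, a rise by day 4 (1.53 ± 0.48, adjusted p = 0.033) and a fall from day 2 (-1.70 ± 0.48, adjusted p = 0.040). Dnmt3a was at 7122 ± 5101 at day 0, 18839 ± 4892 at day 2 and 6192 ± 261 at day 4, a fall from day 2 (-1.58 ± 0.41, adjusted p = 0.026). Yaf2, a subunit of noncanonical Polycomb complexes, rose from 481 ± 263 to 1312 ± 167 (1.55 ± 0.33, adjusted p = 0.0062). Wdr5 fell from 15828 ± 5204 to 7196 ± 178 (-1.10 ± 0.22, adjusted p = 0.0049), and L3mbtl2, of the PRC1.6 complex, fell (-1.04). E2f6 itself rose from day 2 to day 4 (0.64 ± 0.16, adjusted p = 0.026) and Mga was at 11387 at day 0 and 7914 at day 4 (adjusted p = 0.14).

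Between genotypes at day 4, none of the 10 genes passed the threshold in limma, where 1.24% of all 14840 genes tested did. That count holds for the fit without replicate number. With a replicate block most of the 10 genes were called, as given under the dependence on processing, but the labels name no shared batch. In fits without the block, edgeR called 0 of the 10 genes and DESeq2 2 (Dazl and Mael). The groups did not overlap for 7 of the 10 genes, 5 higher in p53 family loss (23% of all genes were) and 2 lower (20.2%). The median log2 difference was 0.35 for the 10 genes and 0.01 for all genes.

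Dazl was at 69.5 and 30.5 in the Trp53+/+ libraries and 301 and 199.5 in p53 family loss. Both loss libraries were higher, with a log2 difference of 2.38 ± 0.45 (ratio of means 5.00, adjusted p = 0.078), at the 99.2 percentile of all genes. With DESeq2 the adjusted p was 1.79e-05 and with edgeR 0.085. Mael was at 93.0 and 39.8 against 252 and 228, again without overlap, with a difference of 1.96 ± 0.42 (ratio of means 3.62, adjusted p = 0.11, DESeq2 8.28e-04, edgeR 0.11).

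Dppa2 was at 208 and 95.5 against 361 and 301, a log2 difference of 1.22 ± 0.39 (adjusted p = 0.23), and Dppa4 at 526 and 326 against 840.4 and 675, 0.86 ± 0.27 (adjusted p = 0.24). Sycp3 was at 222 and 149 against 329.6 and 249, 0.66 ± 0.29 (adjusted p = 0.39). In all 3 genes both loss libraries lay above both Trp53+/+ libraries, and replicate 2 had the lower value in both groups. On leaving out 1 library at a time, the log2 difference stayed above 0 for Dppa2 (0.67 to 1.78), Dppa4 (0.52 to 1.20) and Sycp3 (0.37 to 0.94). It also stayed above 0 for Dazl (1.80 to 2.96) and Mael (1.36 to 2.56). It stayed below 0 for Dppa5a (-0.56 to -0.38) and Tfap2c (-1.30 to -0.47), and changed sign for Dppa3, Tcl1 and Prdm1.

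Dppa5a and Tfap2c lay the other way. Dppa5a was at 1593 and 1431 in the Trp53+/+ libraries and 1158 and 1023 in p53 family loss (-0.47 ± 0.17, adjusted p = 0.28), and Tfap2c at 1029 and 706 against 613 and 345 (-0.89 ± 0.33, adjusted p = 0.30), both without overlap. Prdm1, at 662 and 216 against 274 and 184, overlapped (-0.75 ± 0.52, adjusted p = 0.63), and its Trp53+/+ libraries differed more than the group means did. Dppa3 was at 288 and 239 against 307 and 194 (-0.10 ± 0.29) and Tcl1 at 81.7 and 121 against 107 and 97.2 (0.04 ± 0.31), each overlapping.

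**Figure D3:**
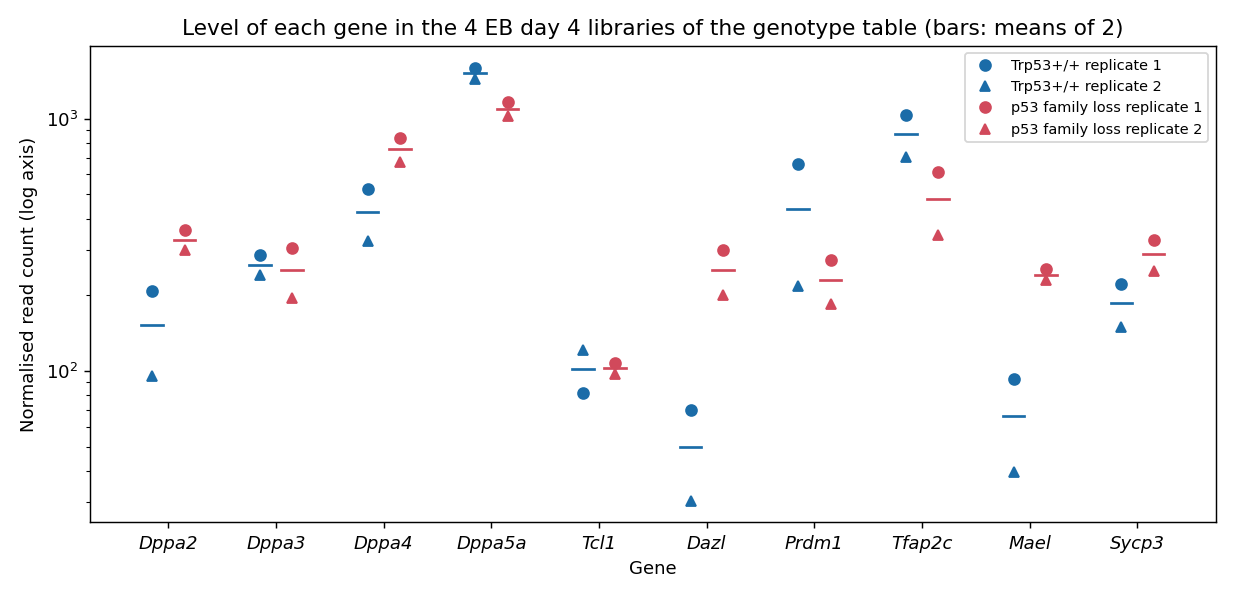
Normalised read count (log axis) of each gene in the 4 day 4 libraries of the genotype table, Trp53+/+ in blue and p53 family loss in red, with circles for replicate 1, triangles for replicate 2 and bars for the means of 2. Levels are to be read within a gene, since they are not scaled to transcript length, and Dazl and Mael show the widest separation between the groups.

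Several library measures are set beside these differences, and only some of them differed between the groups. Rn45s, the ribosomal RNA precursor, took 0.632% and 4.30% of reads in the Trp53+/+ libraries and 0.848% and 2.91% in p53 family loss, so that it was higher in replicate 2 of each. All 8 primitive streak markers fell in p53 family loss, where 0.674% of all genes fell, with sums of 39383 to 41658 in Trp53+/+ and 7375 to 7763 in the loss libraries. Definitive endoderm markers summed to 3958 to 7482 and 1578 to 2063, with 1 of 6 called lower, and trophoblast markers to 1014 to 2037 and 848 to 1212, with 0 of 8 called. Naive pluripotency markers summed to 5855 to 8305 against 5670 to 7018, with 0 of 10 called. Feeder fibroblast markers summed to 1272 to 1384 against 2401 to 2863, with 1 of 7 called higher (0.566% of all genes). The part of these measures in the values of the 10 genes was not tested.

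The other germline genes lay mostly higher in p53 family loss, though few were called. All 17 tested genes of the methylation-dependent list were above 0, with a median log2 difference of 1.68 and 1 called, whereas 51.0% of all genes were above 0 and 0.566% were called higher. The 3 that did not pass the filter were Rhox2a, at 0 in both groups, Tex101, at 2.2 in Trp53+/+ and 4.3 in p53 family loss, and Tuba3b, at 2.4 and 9.3, and reads of Tuba3b cannot be told apart with certainty from those of the closely similar Tuba3a. Of 18 meiosis genes tested, 14 were above 0 (median 0.90, 2 called), and of 17 piRNA and germ granule genes 14 (median 0.70, 0 called). Both lists also hold genes that passed the filter only with the loss libraries, such as Hormad2 (6.3 and 16.1) and Fkbp6 (6.4 and 33.4). Of 16 primordial germ cell genes tested, 7 were above 0 (median -0.08, 1 called).

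The calls were Sohlh2, a transcription factor of spermatogonia and oocytes, at 55.7 ± 0.0850 in Trp53+/+ and 349 ± 28.4 in p53 family loss (log2 2.63 ± 0.24, adjusted p = 0.013), Sycp1 at 17.5 ± 2.26 and 176 ± 68.3 (3.21 ± 0.38, adjusted p = 0.022), and Smc1b, the meiotic cohesin subunit, at 89.6 ± 2.68 and 487 ± 79.4 (2.42 ± 0.24, adjusted p = 0.014). Ddx4 was at 186 ± 67.7 and 607 ± 30.1 (1.75 ± 0.29, adjusted p = 0.056). Of the 16 repressor genes, 0 were called and the differences ran from -0.23 (L3mbtl2) to 0.39 (Dnmt3a), with Dnmt3b at 0.02.

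**Figure D4:**
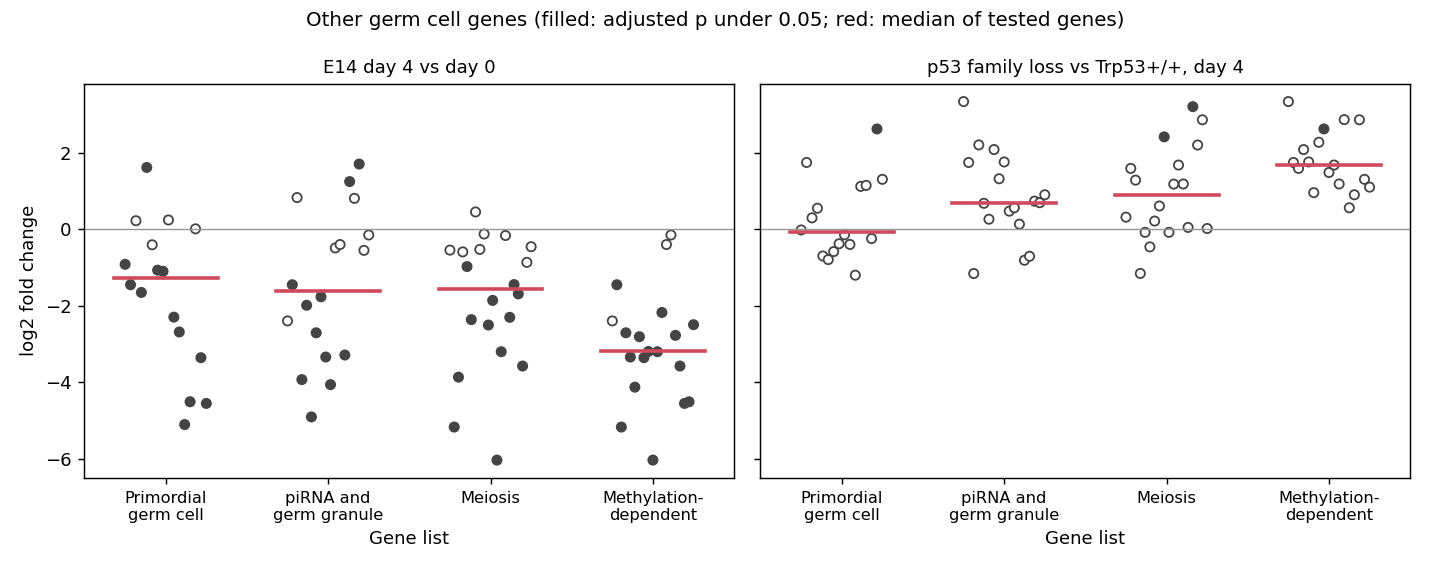
log2 fold change of each tested gene of 4 germline lists, day 4 against day 0 in E14 (left) and p53 family loss against Trp53+/+ at day 4 (right), filled where the adjusted p was under 0.05, with the median in red. Genes in more than 1 list appear under each, and the methylation-dependent list has medians of -3.19 on the left and 1.68 on the right. On the right, some genes passed the filter only with the loss libraries, which raises the medians.

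The wild-type day 4 groups of the 2 tables, E14 and Trp53+/+, differ in strain, in the medium of their ES cells and in the table they were scaled in, so their CPM are set side by side without a test. Dppa3 was at 1.45 and 2.18 CPM in E14 against 11.9 and 9.42 in Trp53+/+, and Tcl1 at 0.653 and 0.655 against 3.39 and 4.76, so that both were higher in both Trp53+/+ libraries. Lower in both Trp53+/+ libraries were Sycp3, at 44.7 and 26.1 in E14 against 9.19 and 5.86, Mael, at 8.26 and 5.79 against 3.85 and 1.57, and Dppa5a, at 109 and 79.4 against 66.1 and 56.5. The other 5 genes overlapped between these groups. The share of all genes without overlap between E14 and Trp53+/+ is not given here. Whether the genes described differ more between these groups than other genes do was therefore not tested.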

How the data were processed

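RNA was measured in 14 libraries, 2 per group. Per the labels' protocols, TruSeq v2 libraries were sequenced with paired ends, and the submitters' processing notes name mm9, HTSeq 0.5.4, DESeq2, Bowtie2, FastQC 0.11.3 and SAMtools 0.1.19. The deposited signal is the authors' read count per gene divided by a library's own factor. In the files, 100% of values were whole multiples of 1 step within 1e-06, which gave back whole reads. The 16 ChIP and input samples were not analysed here.

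Each table was fitted whole in R 4.3.3 by limma 3.58.1 (trend on mean level) on log2(signal + 1), Benjamini-Hochberg 0.05, after edgeR's filterByExpr on the recovered reads (15841 genes in the time course, 14840 between genotypes). edgeR 4.0.16 and DESeq2 1.42.0 on the recovered reads, pseudocounts of 0.5 and 5, 2 other filters, another scaling, a replicate block, fits of only the groups compared and leaving out each library were alternatives. Tested on simulated data, the fit of day 4 against day 0 (15841 genes) found 26.9%, 89.6% and 95.5% of genes changed 2-fold, 4-fold and 8-fold. Between genotypes (14840 genes) the shares were 41.8%, 91.0% and 95.5%. The 10 genes, the lists and the tests were chosen with earlier results of these data known. From each list the 3 called genes with the largest change and a mean of at least 50 were to be named, and the other list genes named were chosen after their values were seen. Promoters were matched by symbol (5 of 10 genes). Depth limits the precision of low values such as Tcl1 at day 4, and intervals of counting error were not needed with replicates.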

Additional observations from a re-analysis of the deposited data

How the results depend on the processing

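For the 10 genes in all comparisons, 1469 values under the alternatives kept their direction and their side of the threshold, 59 lost a call, 87 gained one and 15 changed sign, all 15 on leaving out 1 library. Over these fits the log2 value of Prdm1 from day 0 to day 4 ran from -0.19 to 0.072, turning without day 0 replicate 2, and that of Sycp3 from day 0 to day 2 from -1.59 to 0.14, turning without day 0 replicate 1. From day 0 to day 1, Dppa3 ran from -2.24 to 0.37, Dppa5a from -0.71 to 0.40 and Dazl from -1.82 to 0.23, each turning without day 0 replicate 1. Mael from day 1 to day 2 ran from -0.11 to 0.28, Sycp3 from day 2 to day 3 from -0.045 to 0.64 and Dppa3 from day 3 to day 4 from -0.81 to 0.039. Between genotypes, Dppa3 ran from -0.44 to 0.23, Tcl1 from -0.24 to 0.32 and Prdm1 from -1.55 to 0.055, each turning without Trp53+/+ replicate 1. None of these 15 was called before. The cause was not tested.

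Counts of called genes moved by over 1.5 times as follows. With DESeq2 the 10 genes gave 3 calls from day 0 to day 1, 5 from day 1 to day 2, 3 from day 2 to day 3 and 2 between genotypes, and all genes 1450, 1290, 315 and 657, with 1026 from day 3 to day 4. From day 0 to day 1 the 10 genes gave 2 with edgeR and 2 with a pseudocount of 5. From day 1 to day 2, all genes gave 21 without a filter and 174 on TMM-scaled CPM, where 2 of the 10 genes were called. In fits of only the 2 groups compared, with fewer libraries, all genes gave 2798 from day 0 to day 4, 669 from day 0 to day 2, 6799 from day 2 to day 4, 10 from day 0 to day 1, 319 from day 1 to day 2, 89 from day 2 to day 3 and 1358 from day 3 to day 4, and the 10 genes 2 from day 0 to day 2, 0 from day 0 to day 1 and 4 from day 1 to day 2.

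Leaving out each library in turn gave, for the 10 genes, 8 to 9 calls from day 0 to day 4, 2 to 7 from day 0 to day 2, 4 to 7 from day 2 to day 4, 0 to 5 from day 0 to day 1, 0 to 7 from day 1 to day 2, 0 to 4 from day 2 to day 3, 0 to 6 from day 3 to day 4, 9 to 10 on any day and 0 to 5 between genotypes. For all genes the ranges were 2811 to 7516, 683 to 6226, 623 to 4602, 63 to 5143, 0 to 1755, 1 to 214, 51 to 1308, 3440 to 10403 and 151 to 1599. Where this left 1 library in a group, it was assumed to vary like the others.

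The replicate numbers pair libraries by number only: deviations of same-numbered libraries correlated at -0.19 to 0.35 between days and 0.57 between genotypes, with 2 pairs. With the replicate block the 10 genes gave 3 calls from day 0 to day 1, 2 from day 1 to day 2 and 8 between genotypes (5 higher, 3 lower), where all genes gave 2973 in place of 184. The block moved no other count by over 1.5 times.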

Other observations

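Promoter letters were also counted over the germline lists, in the same RefSeq sequences of 300 bases and without a test, since these promoters differ from the rest in base composition. The E-box CACGTG was held by 7 of 17 piRNA and germ granule genes with an entry (41.2%), 6 of 19 meiosis genes (31.6%), 7 of 18 methylation-dependent germline genes (38.9%) and 1 of 13 primordial germ cell genes (7.69%), beside 7.15% of all promoters. The E2F-type core GCGGGA was held by 12 of 19 meiosis genes (63.2%), 7 of 18 methylation-dependent genes (38.9%), 4 of 17 piRNA genes (23.5%) and 4 of 13 primordial germ cell genes (30.8%), beside 20.0% of all. A list gene was counted if any of its promoters held the letters, whereas the shares of all are of single promoters, so the measures are not alike. The lists share genes.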
